A study of Homo sapiens with 8 samples.

Results

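The genes described here encode the proteins of the mitochondrial ribosome. They were chosen by symbol: every protein-coding gene of the count table whose name is MRPL or MRPS followed by a number and at most 1 letter. The rule found 78 genes among 58735 in the table, of which 19951 are protein-coding. Of these, 49 carry a large-subunit name (MRPL) and 29 a small-subunit name (MRPS). The filter on low counts kept 77 of the 78, among 15790 genes tested, and left out MRPS24.

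RNA was sequenced from SW480, an established human colorectal adenocarcinoma line, after lentiviral infection and puromycin selection. In 4 libraries the cells stably overexpressed FLAG-tagged SPOCK1, a secreted proteoglycan of the extracellular matrix, and in 4 they carried the vector only. The labels name no promoter for the construct and leave unsaid whether a group's libraries stem from different cultures or infections. A p-value here therefore reflects library-to-library spread alone, possibly technical, and SPOCK1 cannot be told apart from any other difference between 2 selected populations.

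The mitochondrial ribosome translates the few messages of the mitochondrial genome, all of which encode subunits of the respiratory chain and ATP synthase. Its ribosomal RNAs are transcribed inside the organelle, whereas its proteins are encoded in the nucleus, made on cytosolic ribosomes and imported through the TOM and TIM complexes. Some of the proteins descend from bacterial ribosomal proteins, and others were added in the mitochondrial lineage. Many colorectal cancer cells respire as well as ferment glucose, and respiration depends on mitochondrial translation.

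Each library held 35643585 to 42812951 counts, of which the 78 genes took 0.573% to 0.735%. SPOCK1 itself had 0 to 6 counts in the control libraries and 6719 to 9712 in the SPOCK1 libraries. Of 12 colorectal epithelial markers, 8 passed the filter, with summed levels of 12939 to 15841 CPM (counts scaled to library size) in controls and 14519 to 16212 CPM in SPOCK1 libraries. KRT20, CDX1, LGALS4 and CDH17 were at or near 0, and CDH1 was lower with SPOCK1, the only call among the 8. Of the 8, 3 stood at an unadjusted p under 0.05, all lower and CDH1 among them. The 4 markers with lower means were CDH1 at 17.8 and 11.2 CPM, VIL1 at 78.1 and 64.9, CDX2 at 104 and 93.2 and GPA33 at 0.704 and 0.386, in controls and SPOCK1 libraries. The other 4 had log2 fold changes above 0. Marker sums of fibroblasts, leukocytes and endothelium reached at most 2.29, 1.56 and 1.27 CPM in any library. Genes annotated as ribosomal RNA took 0.696% to 0.738% of the counts in controls and 0.56% to 0.67% in SPOCK1 libraries, without overlap, and the part of this difference in the results was not tested.

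No mitochondrial ribosomal protein gene changed between SPOCK1 and control cells at an adjusted p under 0.05 (edgeR quasi-likelihood test with Benjamini-Hochberg adjustment over all genes tested). The count was 0 of 77, beside 1.04% of all tested genes called in either direction and 0.247% called higher. The smallest adjusted p among the members was 0.109, for MRPS22. At an unadjusted p under 0.05 stood 16 members (20.8%), all with higher means in SPOCK1 cells, against 13.7% of all genes in either direction and 5.48% in the higher direction. Members named for the large subunit gave 9 of 49 and those named for the small subunit 7 of 28. Limma-voom also called 0, beside 0.944% of all genes. Its unadjusted p was under 0.05 in 17 members (22.1%), all higher, against 13.7% of all genes in either direction and 5.43% higher. DESeq2 called 3 of 77 (MRPL35, MRPS22 and MRPS30), all higher, beside 2.39% of all genes in either direction and 0.665% higher. Without a filter on low counts edgeR called 6 of 78 (MRPL3, MRPL32, MRPL35, MRPL47, MRPL58 and MRPS22), all higher. Of all genes it then called 1.39% in either direction and 0.417% higher. Without SPOCK1 library 4 it called 3 of 77 (MRPL3, MRPL35 and MRPS22), all higher, beside 1.47% of all genes in either direction and 0.409% higher. In RNA from whole cultures, a different amount of RNA per cell and a different number of cells that express a gene cannot be told apart.

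The fitted differences were small and mostly of 1 sign. The log2 fold change of SPOCK1 over control was positive in 73 of 77 members, with a median of 0.14, whereas over all genes tested 49.2% were positive and the median was -0.004. The large-subunit and small-subunit names had medians of 0.14 and 0.15. Every SPOCK1 library lay above every control library in 8 members (10.4%), beside 3.43% of all genes tested. Those 8 were MRPL16, MRPL20, MRPL35, MRPL53, MRPS7, MRPS18B, MRPS21 and MRPS30. No member had every SPOCK1 library below every control, which held for 4.8% of all genes.

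The precision allows bounds on the size of these differences. The 95% interval of the fold change lay within 1.5-fold in either direction for 66 of 77 members. It lay within 2-fold for 76, the exception being MRPL53. The interval lay wholly above 0 on the log2 scale for 16 members and wholly below for 0. In the plot of intervals by subunit name, the points of most members sit between 0 and 0.4, and the wide intervals belong to low-count members and to those that varied most between libraries.

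**Figure D1:**
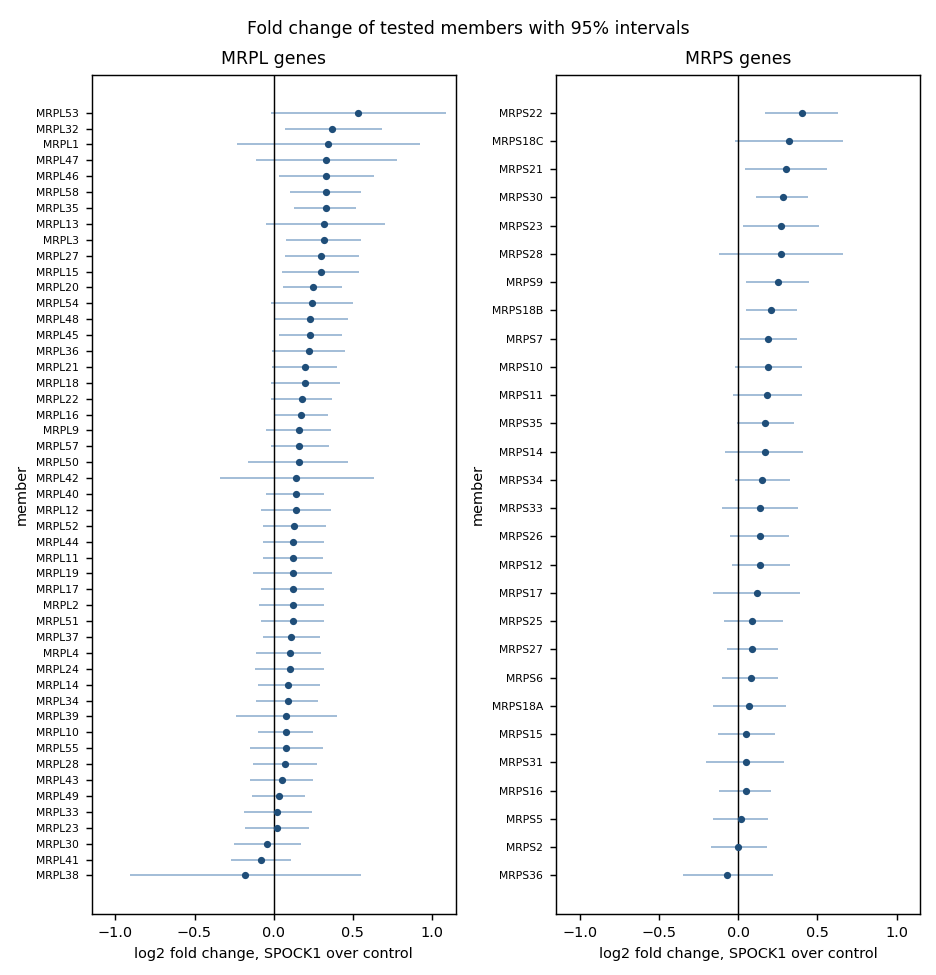
Log2 fold change of SPOCK1 over control (x axis) for each of the 77 tested members (y axis), with MRPL genes on the left and MRPS genes on the right. Points are fitted values and bars are 95% intervals from all 8 libraries. Points lie right of 0 for 73 members, and no interval lies wholly left of 0.

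The lean towards higher values was widest between 1 library on each side. The summed level of all 78 genes was 5450, 6136, 6249 and 6444 CPM in control libraries 1 to 4. It was 7555, 6646, 6261 and 6314 CPM in SPOCK1 libraries 1 to 4. The groups overlapped: control library 1 was the lowest of all 8 and SPOCK1 library 1 the highest, while SPOCK1 libraries 3 and 4 lay below control library 4. The means were 6070 ± 432 CPM in controls and 6694 ± 599 CPM with SPOCK1 (SD, n = 4 each), a ratio of 1.1. SPOCK1 library 1 was the highest of the 8 libraries in 64 of the 77 tested members, and control library 1 the lowest in 47. Without those 2 libraries, a choice made after their values were seen, the means were 6276 ± 156 and 6407 ± 209 CPM (SD, n = 3 each), a ratio of 1.02. Leaving out the lowest control and the highest SPOCK1 library narrows the difference by construction, so these values cannot show where it came from.

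Without the same 2 libraries the median log2 fold change of the members was 0.03, 47 of 77 members were positive, and 4 members stood at an unadjusted p under 0.05 (5.19%, of all genes 10.9%), 3 of them higher (MRPL35, MRPS22 and MRPS30) and MRPL41 lower. The edgeR test again called 0, beside 0.714% of all genes. Leaving out only control library 1 gave a median of 0.10 and 68 positive members, and leaving out only SPOCK1 library 1 gave 0.09 and 61. The 8 members without overlap kept that order among the remaining 6 libraries by construction, and no further member joined them, so their share stayed at 10.4%, beside 7.66% of all genes. In 1 member, MRPL41, the SPOCK1 libraries then all lay below the controls, beside 8.77% of all genes.

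**Figure D2:**
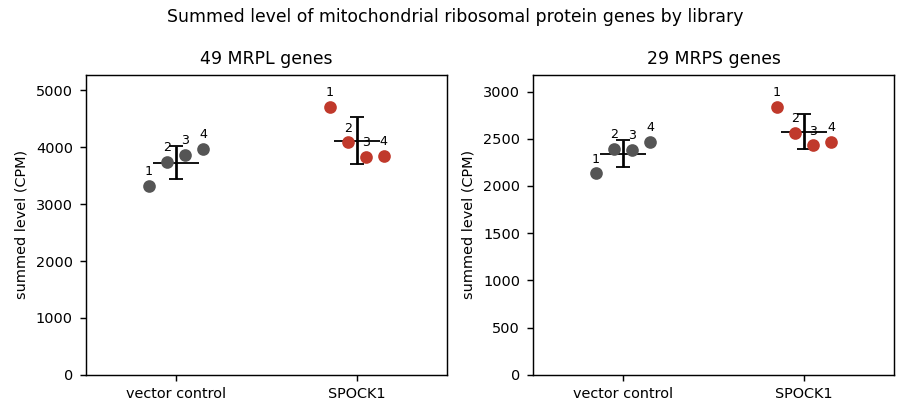
Summed level in CPM (y axis, from 0) of the 49 MRPL genes (left) and the 29 MRPS genes (right) in each library of the vector control and SPOCK1 groups (x axis). Points are libraries, numbered 1 to 4, and bars show the group mean ± SD (n = 4). In both panels control library 1 is lowest and SPOCK1 library 1 highest, and the other 6 libraries lie close together.

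The balance between the large-subunit and small-subunit names was alike in both groups. These sums go by name and are not sums over the assembled subunits. MRPS30 and MRPS18A, located in the large subunit, and MRPS36 count as small here. The 5 subunits with other symbols, such as DAP3 of the small subunit, are not counted. Large-subunit names summed to 3727 ± 289 CPM in controls and 4119 ± 414 CPM with SPOCK1, and small-subunit names to 2343 ± 145 and 2574 ± 185 CPM (SD, n = 4 each). The ratio of the sums was 1.59 ± 0.0354 in controls and 1.60 ± 0.045 with SPOCK1, a difference smaller than the spread within either group. The 45 tested members with a bacterial counterpart had a median log2 fold change of 0.16, and the 32 others 0.14.

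Other nuclear genes of translation and respiration stood at their extremes in the same 2 libraries. The 77 cytosolic ribosomal protein genes summed to 71958 CPM in control library 1 and 102493 CPM in SPOCK1 library 1, the lowest and highest of the 8, with 83274 to 90938 CPM in the other 6. Nuclear-encoded oxidative phosphorylation subunits summed to 8957 CPM in control library 1 and 12128 CPM in SPOCK1 library 1, again the lowest and highest. Exonic length was compared over tested genes with a mean of at least 1 CPM. The fifth of them with the shortest exonic length deviated by -0.14 on the log2 scale in control library 1 and by 0.10 in SPOCK1 library 1. How much of the members' difference goes with these library-wide shifts was not tested.

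The mitochondrial ribosome's own RNAs did not share the members' sign. They were singled out after their values were seen, and how ribosomal RNA was treated in library preparation is not given in the sources used here. MT-RNR2, the large-subunit ribosomal RNA, was at 6115, 6325, 6306 and 6680 CPM in control libraries 1 to 4 and at 6148, 5548, 4957 and 5551 CPM in SPOCK1 libraries 1 to 4. SPOCK1 libraries 2 to 4 lay below every control, and SPOCK1 library 1 just above the lowest control. The log2 fold change was -0.20 ± 0.08 (SE), with an adjusted p of 0.296 (edgeR quasi-likelihood test). MT-RNR1, the small-subunit ribosomal RNA, was at 693 ± 47.8 CPM in controls and 666 ± 65.9 CPM with SPOCK1 (SD, n = 4 each). Its groups overlapped, at -0.06 on the log2 scale and an adjusted p of 0.809 (edgeR). Both RNAs count among the genes annotated as ribosomal RNA, whose share of the counts was lower in SPOCK1 libraries. MT-RNR2 made up most of that share, so its values and the share are not separate observations. The 13 mitochondrially encoded messages summed to 25597 ± 3119 and 25697 ± 2751 CPM (SD, n = 4 each), with 8 of 13 log2 fold changes positive and none called.

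Short stretches around the gene starts are shown next because they hold motifs found more often at these genes than at genes in general. Those shown come from some of the members whose values are described below. Sequences are RefSeq GRCh38.p14 windows from 250 bases before to 50 after the annotated start, of which 68 of the 77 tested members matched a window. The letters CCGGAAG, a core bound by ETS-family factors such as GABPA, were present on either strand in 29 of the 68 (42.6%), beside 19% of 10243 promoters of tested genes. In the following 30-base stretches, read 5′ to 3′ on the gene's strand, capitals mark CCGGAAG or its reverse complement.
MRPS22, chr3:139343899-139343928, plus strand: ataagggcCCGGAAGaCTTCCGGccctttc
MRPS34, chr16:1773142-1773171, minus strand: accggcctCTTCCGGtgaCTTCCGGccgga
MRPL3, chr3:131502982-131503011, minus strand: aaaacgcaCCGGAAGtgggtccggcggctt
MRPL20, chr1:1407293-1407322, minus strand: gggctgacCCGGAAGcgctcgtgaccacca
MRPL58, chr17:75012654-75012683, plus strand: agcgcccgCCGGAAGcagtcgcaagacctg
MRPL47, chr3:179604656-179604685, minus strand: ttgagacgCCGGAAGtgacgctatcgttgg

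MRPS22 and MRPS34 each hold the core 2 times in the stretch shown. The members shown were chosen by their values, since each was called higher in at least 1 alternative setting. Other members described below, such as MRPS16, MRPS23 and MRPS26, also hold the core and are not shown. The RefSeq start of MRPS22 lies inside the longer gene span of the deposited table. Of the 39 sites in member promoters, 27 lay within 100 bases before the start and 6 after it. The letters AAGATGGC, a core bound by YY1, were present on either strand in 19 of the 68 windows (27.9%), beside 5.34% of all. Of 20 such sites, 14 lay after the start, where the ATG of the motif can coincide with a start codon. Capitals mark AAGATGGC in these stretches.
MRPS30, chr5:44808949-44808978, plus strand: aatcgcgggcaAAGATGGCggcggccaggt
MRPS7, chr17:75261887-75261916, plus strand: cgtggccagccAAGATGGCtgcccccgcag
MRPS18B, chr6:30617852-30617881, plus strand: gggcgtacgtcAAGATGGCggcgtctgtat
MRPS18A, chr6:43687764-43687793, minus strand: gtaggtttttgAAGATGGCggccctcaagg
MRPL20, chr1:1407260-1407289, minus strand: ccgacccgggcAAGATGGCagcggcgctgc
MRPL45, chr17:38297170-38297199, plus strand: tttgcgggaacAAGATGGCagcccccatac

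MRPL20 holds both motifs. At least 1 of the motifs was found in 40 of 68 member windows (58.8%), beside 23% of all, and both in 8. The shares of the other motifs in member windows were close to or below those in all: the palindromic NRF1 consensus in 1.47% beside 2.3%, CACGTG in 10.3% beside 10%, GGGCGG in 58.8% beside 71.5%, CCAAT in 29.4% beside 36.4% and TATAAA in 2.94% beside 5.4% (each on either strand). Member windows had a GC content of 61.2%, all windows 65%. The median log2 fold change was 0.15 in members with CCGGAAG and 0.12 in those without, and 0.19 with AAGATGGC and 0.12 without. It was 0.18 with CACGTG and 0.14 without, 0.12 with GGGCGG and 0.2 without, and 0.15 with CCAAT and 0.14 without. For the NRF1 consensus, found in 1 member, it was 0.12 with and 0.14 without, and for TATAAA 0.14 in both. None of these differences was tested. A match is only a match of letters.

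Several members start close to a gene on the opposite strand. A start on the opposite strand within 1000 bases was annotated for 29 of 77 tested members (37.7%), beside 17.3% of protein-coding genes tested. Both shares include pairs that overlap at their starts, such as MRPS7 with GGA3 and MRPL51 with NCAPD2. Starts followed the deposited gene spans, so MRPS22 is counted with PRR23A at the upstream end of its span. MRPL46 and MRPS11 are a pair without overlap, 34 bases apart. Other partners are MTBP for MRPL13, NDUFB5 for MRPL47, NDUFS6 for MRPL36 and EME2 for MRPS34. Of 27 members with a tested partner, the median log2 fold change was 0.16, and that of the partners 0.00, with 12 of 27 positive and none called. MRPL46 and MRPS11 partner each other and stand in both counts.

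Among the small-subunit names, MRPS22 had the smallest p. It encodes a mitochondria-specific subunit in which inherited variants cause combined oxidative phosphorylation deficiency. MRPS22 (ENSG00000175110, chromosome 3, 139005806 to 139357223, plus strand) was at 82, 78, 94.4 and 88.5 CPM in control libraries 1 to 4 and at 139, 112, 113 and 89 CPM in SPOCK1 libraries 1 to 4. SPOCK1 libraries 1 to 3 lay above every control, and library 4 lay within the controls. The log2 fold change was 0.40 ± 0.11 (SE) with an adjusted p of 0.109 (edgeR). It was 0.26 without libraries 1, which from here on means without both control library 1 and SPOCK1 library 1. Adjusted p ran from 0.00253 to 0.306 over the alternative settings. COPB2, PRR23A and AC024933.1 overlap its exons on the opposite strand.

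MRPS30 and MRPS18A keep small-subunit names, although both proteins are located in the large subunit. MRPS30 (ENSG00000112996, chromosome 5, 44808925 to 44820428, plus strand) was at 64.6, 61.7, 67.3 and 65.2 CPM in control libraries and at 83.6, 77.7, 80.5 and 71.6 CPM in SPOCK1 libraries 1 to 4. Every SPOCK1 library lay above every control, by the least in library 4. The log2 fold change was 0.28 ± 0.08 (SE), with an adjusted p of 0.119 (edgeR), and 0.24 without libraries 1. MRPS18A was at 34.4 ± 4.94 CPM in controls and 36.1 ± 2.94 CPM with SPOCK1 (SD, n = 4 each), with overlap, and its log2 fold change turned from 0.07 to -0.05 without libraries 1.

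Its paralogs MRPS18B and MRPS18C, both small-subunit proteins, differed in how far the libraries separated. MRPS18B was at 117, 137, 129 and 135 CPM in controls and 160, 144, 144 and 150 CPM with SPOCK1, without overlap, for a log2 fold change of 0.21 ± 0.08 (SE). MRPS18C was at 8.8, 9.4, 9.95 and 7.39 CPM in controls and 15.4, 10.3, 9.31 and 9.26 CPM with SPOCK1. Only SPOCK1 library 1 stood clearly above the rest, and the log2 fold change of MRPS18C was 0.32 ± 0.16 (SE) with all libraries and 0.11 without libraries 1. ABRAXAS1 overlaps MRPS18C, and RSPH9 overlaps MRPS18A, on the opposite strand.

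MRPS7, whose bacterial counterpart starts assembly of the head of the small subunit, was at 93.2, 107, 109 and 109 CPM in controls and 135, 117, 109 and 116 CPM with SPOCK1. The groups just failed to overlap, since SPOCK1 library 3 and the upper controls were alike to the digits given. Its log2 fold change was 0.19 ± 0.08 (SE), and 0.08 without libraries 1. MRPS12, a protein of the decoding centre, was at 148 ± 14.3 CPM in controls and 163 ± 12.9 CPM with SPOCK1 (SD, n = 4 each), with overlap. MRPS23 was at 80.1, 79.2, 86.3 and 91.5 CPM in controls and 133, 94.8, 92.4 and 85.6 CPM with SPOCK1, where library 1 again stood highest. The log2 fold change of MRPS23 was 0.27 with all libraries and 0.09 without libraries 1.

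The remaining small-subunit names in the list used for inherited disease had log2 fold changes between 0.00 and 0.27. MRPS14, MRPS16 and MRPS2 had log2 fold changes of 0.17, 0.05 and 0.00, and MRPS28 and MRPS34 of 0.27 and 0.15. All 5 overlapped between the groups. The list used for inherited oxidative phosphorylation deficiency holds 11 members and need not be complete. Their median was 0.17, and 4 (36.4%) stood at an unadjusted p under 0.05, all higher, with 0 called. In that direction the share was 20.8% over all tested members and 5.48% over all genes. MRPS5 and MRPS36 were among the lowest fold changes, at 0.02 and -0.07. MRPS36 was later found to serve as an adaptor of the 2-oxoglutarate dehydrogenase complex. It was at 12.6, 11.9, 13.7 and 12.3 CPM in controls and 15.2, 10.4, 12.9 and 9.75 CPM with SPOCK1, with SPOCK1 libraries both above and below the controls.

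Among the large-subunit names, MRPL35 had the smallest p. MRPL35, a protein with a bacterial counterpart (ENSG00000132313, chromosome 2, 86199355 to 86213794, plus strand), was at 64.7, 62.6, 68.9 and 67.3 CPM in controls and 97.6, 84.5, 75.9 and 72.4 CPM in SPOCK1 libraries 1 to 4. Every SPOCK1 library lay above every control. The log2 fold change was 0.33 ± 0.09 (SE), with an adjusted p of 0.123 (edgeR), and 0.23 without libraries 1.

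MRPL58, a peptidyl-tRNA hydrolase that became part of the large subunit (ENSG00000167862, chromosome 17, 75012670 to 75021261, plus strand), was at 63.1, 74.5, 74.8 and 84.6 CPM in controls and 112, 91.9, 84.2 and 84.5 CPM with SPOCK1. Control library 4 reached SPOCK1 libraries 3 and 4. Its log2 fold change was 0.33 ± 0.11 (SE) with an adjusted p of 0.176 (edgeR), and 0.16 without libraries 1. Of the other members derived from enzymes, MRPL44, with a ribonuclease III fold, was at 32.8 ± 2.44 and 35.7 ± 2.58 CPM in the 2 groups (SD, n = 4 each), with overlap. MRPL39, related to threonyl-tRNA synthetase, had a log2 fold change of 0.08 that turned to -0.10 without libraries 1.

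MRPL3, near the peptidyl transferase centre, was at 167, 163, 197 and 175 CPM in controls and 273, 211, 217 and 173 CPM with SPOCK1. SPOCK1 libraries 1 to 3 lay above every control and library 4 among them. Its log2 fold change was 0.32 ± 0.11 (SE), and 0.17 without libraries 1. MRPL20 was at 81.1, 101, 95.9 and 102 CPM in controls and 123, 113, 110 and 104 CPM with SPOCK1, without overlap, for a log2 fold change of 0.25 ± 0.09 (SE), and 0.13 without libraries 1. MRPL32, which is matured by the m-AAA protease before it joins the ribosome, was at 41.5, 39.7, 60.2 and 41.1 CPM in controls and 73, 56.7, 62 and 44.9 CPM with SPOCK1, where control library 3 reached the SPOCK1 range.

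A few large-subunit members varied more between libraries of 1 group than between the groups. MRPL1, which forms a mobile stalk at the exit of transfer RNA, was at 14.2, 13.2, 26.4 and 13.3 CPM in controls and 37.4, 13.5, 18.6 and 15.5 CPM with SPOCK1. MRPL47 was at 42.9, 39.9, 70.9 and 42.2 CPM in controls and 94.8, 49.1, 61.5 and 41.4 CPM with SPOCK1. In both, libraries 1 and 3 of the SPOCK1 group and library 3 of the controls were high. MRPL42 was at 30.7, 26.3, 49.9 and 22.7 CPM in controls and 53.5, 29.3, 37 and 23.4 CPM with SPOCK1, again with the highest values in libraries 1 and 3 of the SPOCK1 group and library 3 of the controls. Without libraries 1, the log2 fold changes were -0.15 for MRPL1, -0.01 for MRPL47 and -0.14 for MRPL42, against 0.34, 0.33 and 0.14 with all libraries.

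The heat map of deviations shows this as separate columns: control library 1 is low across most members, SPOCK1 library 1 is high, and control library 3 is high in a small set that includes MRPL1, MRPL32, MRPL42, MRPL47 and MRPL39.

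**Figure D3:**
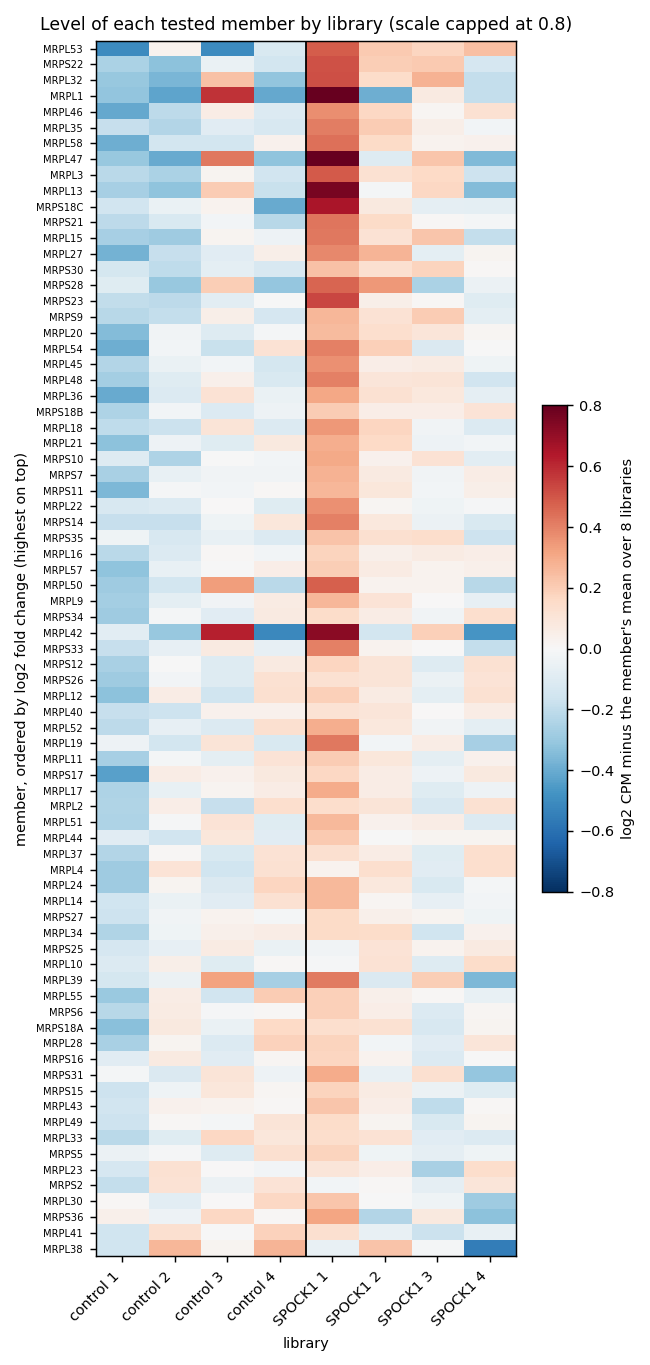
Deviation of each tested member's log2 CPM from its own mean over the 8 libraries (colour, red high and blue low, scale capped), with members in rows from the highest log2 fold change at the top and libraries in columns. SPOCK1 library 1 is the highest library in 64 of 77 members and control library 1 the lowest in 47.

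By structural region, the large-subunit members gave similar values. The stalk proteins MRPL10, MRPL11 and MRPL12, which recruit translation factors, had log2 fold changes of 0.08, 0.12 and 0.14, and all 3 overlapped between the groups. At the tunnel exit, MRPL22, MRPL23 and MRPL24 had 0.18, 0.02 and 0.10. MRPL45, which holds the ribosome to the inner membrane, was at 61.5 ± 4.04 CPM in controls and 72.1 ± 9.06 CPM with SPOCK1 (SD, n = 4 each), with overlap and a log2 fold change of 0.23 ± 0.09 (SE), or 0.10 without libraries 1.

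The central protuberance, where human mitochondria use a transfer RNA in place of the bacterial structural RNA, comprises MRPL18, MRPL38, MRPL40, MRPL46 and MRPL48 in the list used. Their log2 fold changes were 0.20, -0.18, 0.14, 0.33 and 0.23, and all 5 overlapped between the groups. MRPL30 and MRPL41 were the other 2 large-subunit members with a value below 0, at -0.04 and -0.08. MRPL41 was at 113, 138, 126 and 143 CPM in controls and 138, 121, 112 and 121 CPM with SPOCK1. The 2 lowest values belong to 1 library of each group.

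The members differed far more from one another in level than between conditions. Per kilobase of exonic length, averaged over the 8 libraries, the 77 tested members had a median of 27.5 CPM, against 3.01 for all genes tested and 297 for cytosolic ribosomal protein genes. The highest were MRPS34 at 222, MRPS26 at 113, MRPL37 at 105, MRPL41 at 100 and MRPL49 at 84.1 CPM per kb, none of which has a bacterial counterpart in the list used. In CPM, MRPS34 was at 231 ± 23.6 in controls and 256 ± 13.8 with SPOCK1, and MRPL37 at 258 ± 27.1 and 279 ± 20.2 (SD, n = 4 each). Both overlapped between the groups, as did MRPS26 and MRPL49.

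The lowest levels came from genes that share exons with a neighbour or have long annotated exons. MRPL38 was lowest among tested members at 0.162 CPM per kb, followed by MRPL53 at 0.848, MRPL46 at 0.955, MRPS18C at 2.05 and MRPL42 at 2.08. MRPS24, not tested, was at 0.0674 CPM per kb, with 3, 7, 11 and 13 counts across the controls, and with SPOCK1 5, 5, 1 and 8. The annotated exons of MRPL42 cover 16393 bases and those of MRPL46 6432, against 1097 for MRPS34, the highest per kilobase. Long exons did not always go with a low level. MRPS5, with 6719 bases, was at 14.7 CPM per kb, and MRPS27, with 6511, at 20.

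Larger exon overlap on the same strand went with low level in 5 of 7 members. At least 20% of exonic bases were shared with another gene on the same strand in 7 members, with a median of 2.53 CPM per kb, against 27.7 in the 62 members that share none. The 9 members that share less than 20% had a median of 32.7 CPM per kb, so a smaller overlap did not go with a low level. MRPS24 shares 23.2% with the readthrough gene URGCP-MRPS24, MRPL38 37.5% with AC087289.3 and MRPS28 35.8% with AC036214.3. Each of those 3 partners had 0 counts in every library. MRPL53 shares 45.2% with CCDC142, which was at 6.29 to 8.85 CPM across libraries, above the 0.782 to 1.55 CPM of MRPL53. MRPL12 and MRPL33 are the exceptions. MRPL12 shares 68.2% with AC139530.2, which had 0 counts, and was at 45.4 CPM per kb, and MRPL33 shares 21.1% with BABAM2 and was at 26.2 CPM per kb. MRPS17 shares 27% with NIPSNAP2 and AC092647.5 and stood at 4.78 CPM per kb.

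How reads that fall in shared exons were assigned is not given in the sources used here, and the part of overlap in these levels was not tested. MRPL53 has the highest log2 fold change of all members, 0.53 ± 0.26 (SE), from 0.784, 1.13, 0.782 and 1.02 CPM in controls and 1.55, 1.28, 1.25 and 1.31 CPM with SPOCK1. The groups did not overlap, and the adjusted p was 0.390 (edgeR). MRPL38 was at 0.631 ± 0.0897 CPM in controls and 0.556 ± 0.118 CPM with SPOCK1, and MRPL46 at 5.44 ± 0.727 and 6.84 ± 0.722 CPM (SD, n = 4 each), both with overlap.

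**Figure D4:**
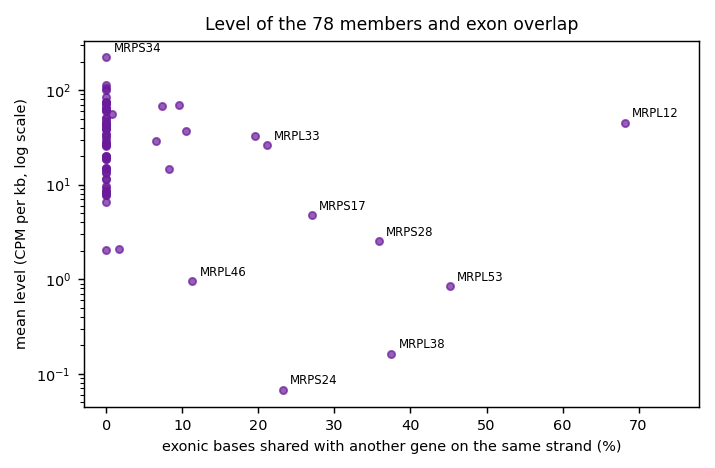
Mean level of each of the 78 members over 8 libraries in CPM per kb (y axis, log scale) against the percentage of its exonic bases shared with another gene on the same strand (x axis). Points are genes. Of the 7 members with at least 20% shared, MRPL12 at 45.4 and MRPL33 lie among the other members, and the rest lie below most of them.

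In all, 41 of the 78 members overlap the exons of some gene on either strand, and since the strand setting is not given, reads within the shared bases cannot be told apart from the partner's. The shared bases, on either strand, made up 0.1% of the exonic length in MRPL13, 0.7% in MRPL32 and 68.2% in MRPL12, the lowest values and the highest. On the same strand these are MRPL9, MRPL12, MRPL20, MRPL28, MRPL30, MRPL33, MRPL38, MRPL42, MRPL46, MRPL53, MRPS5, MRPS6, MRPS16, MRPS17, MRPS24 and MRPS28. On the opposite strand only, they are MRPL2, MRPL4, MRPL11, MRPL13, MRPL19, MRPL23, MRPL32, MRPL34, MRPL37, MRPL43, MRPL44, MRPL47, MRPL49, MRPL51, MRPS2, MRPS7, MRPS9, MRPS11, MRPS12, MRPS14, MRPS18A, MRPS18C, MRPS22, MRPS25 and MRPS27.

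With all 8 libraries, members with a lower GC content had slightly higher fold changes, to a degree that varied with the libraries used. Across the 77 tested members, log2 fold change and GC content gave a Pearson correlation of -0.37 and a Spearman correlation of -0.36, described without a test because the genes share the same libraries; over all genes tested the Spearman value was -0.14. Without SPOCK1 library 1 the members gave a Pearson value of -0.06 and a Spearman value of 0.00. With any other 1 library left out Pearson values ran from -0.53 to -0.15, the weakest being -0.15 without control library 4 and -0.19 without control library 2. With libraries 2 and 4 alone, which also leaves out SPOCK1 library 1, the Pearson value was -0.35 and the Spearman value -0.32. Without both libraries 1 the Pearson value was -0.19, and with libraries 1 and 3 alone -0.22. In 3 groups of members ordered by GC content, the median log2 fold change was 0.17, 0.17 and 0.11 from the lowest to the highest. In SPOCK1 library 1 the group with the lowest GC content lay 0.41 above its mean on the log2 scale and the group with the highest 0.17. With per-library offsets for GC content and length, the Pearson correlation was -0.02 and the median log2 fold change 0.15. The edgeR test then called 7 of 77 members, all higher, beside 3.91% of all genes in either direction and 2.31% higher. These were MRPL3, MRPL20, MRPL32, MRPL35, MRPS22, MRPS30 and MRPS34. Such offsets take out real change along GC content or length too, and over all genes they moved the median to 0.03 and the share of positive log2 fold changes to 56.2%.

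**Figure D5:**
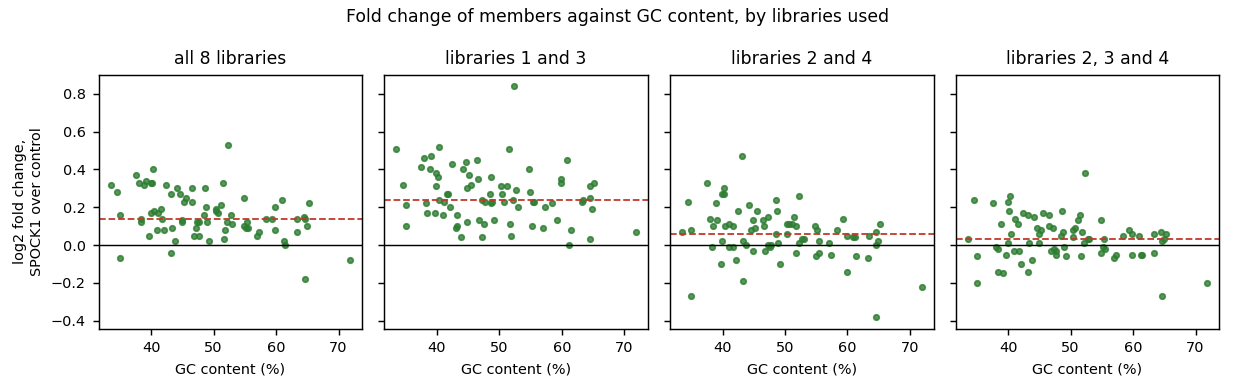
Log2 fold change of SPOCK1 over control (y axis) against GC content in percent (x axis) for the 77 members, fitted with all 8 libraries, with libraries 1 and 3 of both groups, with libraries 2 and 4, and with libraries 2, 3 and 4. Points are genes, and the dashed line is the median, at 0.14, 0.24, 0.06 and 0.03.

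GC content was also compared over tested genes with a mean of at least 1 CPM. The fifth of them with the lowest GC content lay above its mean in libraries 1 and 3 of both groups, by 0.09 to 0.14 on the log2 scale. In libraries 2 and 4 of both groups it lay below its mean, at -0.17 to -0.05. Fitted within each of these sets of libraries, the median log2 fold change was 0.24 with libraries 1 and 3, where 76 of 77 members were positive, and 0.06 with libraries 2 and 4, where 56 were. Neither fit called a member, with 2 libraries a group, beside 0.0494% of all genes called with libraries 1 and 3 and 0.881% with libraries 2 and 4.

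The other components of the mitochondrial translation system, taken from lists of genes, leaned the same way and likewise held no call. The 5 ribosomal subunits with other symbols were all positive, with a median of 0.12. DAP3, a GTP-binding protein of the small subunit, was the only one without overlap, at 126, 139, 133 and 143 CPM in controls and 177, 158, 144 and 153 CPM with SPOCK1, with an adjusted p of 0.228 (edgeR). Assembly factors and ribosomal RNA modifiers were positive in 25 of 27 with a median of 0.09, translation factors in 15 of 16 with 0.13, and aminoacyl-tRNA synthetases and amidotransferase subunits in 16 of 19 with 0.09. Genes of mitochondrial DNA transcription, replication and RNA processing were positive in 15 of 17 with 0.14, and presequence import genes in 17 of 19 with 0.14.

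Cytosolic ribosomal protein genes, which share no subunit with the mitochondrial ribosome, had a similar median but fewer low p-values: 75 of 77 were positive, with a median of 0.13 and 0 called. At an unadjusted p under 0.05 stood 5 of them (6.49%), beside 20.8% of the members, and in 0 of them did every SPOCK1 library lie above every control, beside 8 members. At the same cut stood 6 of 19 presequence import genes, a larger share than among the members. The share was smaller for translation factors (3 of 16), the aminoacyl-tRNA list (3 of 19) and assembly factors and modifiers (3 of 27). It was also smaller for mitochondrial DNA and RNA genes (1 of 17) and oxidative phosphorylation subunits (2 of 73). Every SPOCK1 library lay above every control in 2, 0, 2, 0, 1 and 1 genes of these lists, in that order. The differences between the lists were not tested. Nuclear-encoded oxidative phosphorylation subunits were positive in 67 of 73 with a median of 0.09 and 0 called. All these values come from the same 8 libraries as those of the members.

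None of the regulators of mitochondrial biogenesis was called. The co-activators PPARGC1A, PPARGC1B and PPRC1 had log2 fold changes of -0.21, 0.02 and 0.02, the transcription factors NRF1, ESRRA and YY1 0.08, -0.04 and 0.00, and MYC 0.08. GABPA and GABPB1, the subunits of an ETS-family factor, had -0.07 and 0.22. Of the 9, 5 were positive, with a median of 0.02.

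Over the 8 libraries, the genes whose log2 CPM most resembled the mean of the members were SNAPIN, RPA2 and DAD1, with Pearson correlations of 0.992, 0.99 and 0.987 among the 8576 candidates, which were tested protein-coding genes with a mean of 10 CPM or more. With 8 libraries that share depth, length and GC trends, and so many candidates, these values are descriptions only. None of the 3 was called.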

How the data were processed

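The authors deposited raw counts of reads per gene. Per the submitters' processing notes, the tools were featureCounts 1.5.0-p3, HISAT2 2.0.5 and CASAVA. Build, strand setting and handling of reads in shared exons: not given in the sources used here. Coordinates and exonic lengths of all 58735 genes equalled those of GENCODE 29, on GRCh38. Depth was 35643585 to 42812951 counts a library.

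Members and lists were chosen with earlier results of these data known. Groups came from the library titles. Genes passed filterByExpr (minimum count 10, minimum total 15). Counts were scaled by TMM and compared with edgeR 4.0.16 (quasi-likelihood F test, no covariates, R 4.3.3), adjusted over 15790 genes. SE and intervals came from the F statistic, and CPM used the scaled library sizes. The test was tested on simulated counts. The text names members past an adjusted p of 0.05, the 6 highest and 6 lowest log2 fold changes at a mean of at least 1 CPM, the 5 highest and 5 lowest levels per kb, members that overlap another gene or were not tested, and members of role lists. Further members named were added after their values were seen.

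The alternatives were DESeq2 1.42.0, limma-voom (limma 3.58.1), upper-quartile or RLE factors, other filters, a replicate block, other library sizes, offsets on GC content and length (splines of 5 degrees of freedom), and subsets of libraries.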

Additional observations from a re-analysis of the deposited data

Results flagged for a closer look

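In 9 of 90 groups of 4 libraries examined (43 named members, the summed level of all members and the ratio of the sums by subunit name), 1 library lay far from the other 3, by Dixon's ratio at its 95% critical value. Chance flags about 1 in 20 groups. In SPOCK1 library 1, MRPL22 was at 91.2 CPM (68.9 to 71.4 in the other 3), MRPL44 at 39.5 (34 to 34.6), MRPS5 at 112 (94 to 96.5) and MRPS18C at 15.4 (9.26 to 10.3), all higher. In control library 3, MRPL1 was at 26.4 CPM (13.2 to 14.2 in the others), MRPL32 at 60.2 (39.7 to 41.5) and MRPL47 at 70.9 (39.9 to 42.9), also higher. MRPS7 was lower in control library 1, at 93.2 CPM against 107 to 109. MRPS26 was lower in SPOCK1 library 3, at 123 CPM against 136 to 138.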

How the results depend on the processing

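The number of members called, 0 with edgeR and all libraries, became 3 with DESeq2, all higher, beside 0.665% of all genes called higher. It became 6 without a filter beyond 1 count (MRPL3, MRPL32, MRPL35, MRPL47, MRPL58 and MRPS22, all higher). Of all genes, 1.39% were then called in either direction and 0.417% higher. It was 7, all higher, with offsets on GC content and length, beside 2.31% of all genes called higher. It ran from 0 to 3 when 1 library was left out. The 3 arose without SPOCK1 library 4 (MRPL3, MRPL35 and MRPS22, all higher, beside 1.47% of all genes in either direction and 0.409% higher). Causes were not tested. The labels do not say whether same-numbered libraries of the groups are pairs. Deviations of same-numbered libraries correlated at -0.16, 0.09, 0.12 and 0.18, and those of differently numbered libraries at -0.35 to 0.36. With the replicate number as a block 0 members were called, the smallest adjusted p was 0.16 and the median log2 fold change 0.15, and with the block and the offsets together 0 were called, the smallest adjusted p being 0.0516. The median log2 fold change ran from 0.09 to 0.18 with 1 library left out, and the difference in summed level, 624 CPM, from 624 to 645 under other scalings. Of 945 values for 43 named members, 880 kept their sign and side of the threshold, 19 passed the threshold in the direction they already had, and 46, in 16 members, changed sign. Without both libraries 1 these were MRPL1 -0.15, MRPL23 -0.05, MRPL24 -0.04, MRPL39 -0.10, MRPL42 -0.14, MRPL47 -0.01, MRPL49 -0.06, MRPS2 -0.05, MRPS5 -0.06, MRPS16 -0.03 and MRPS18A -0.05. With libraries 2 and 4 alone they were MRPL12 -0.00, MRPL24 -0.06, MRPL39 -0.08, MRPL49 -0.04, MRPS2 -0.06, MRPS5 -0.10, MRPS16 -0.03 and MRPS18A -0.05, and with libraries 1 and 3 alone MRPL23 -0.00, MRPL30 0.10, MRPL38 0.03, MRPL41 0.07 and MRPS36 0.10. With offsets MRPL39 was at -0.02 and MRPL41 at 0.06, and with offsets and block at -0.02 and 0.05. With 1 library left out, the ranges were -0.07 to 0.65 for MRPL1, -0.02 to 0.10 for MRPL23, -0.13 to 0.04 for MRPL30, -0.06 to 0.21 for MRPL39, -0.11 to 0.43 for MRPL42, -0.02 to 0.07 for MRPL49, -0.06 to 0.04 for MRPS2, -0.05 to 0.06 for MRPS5, -0.01 to 0.09 for MRPS16, -0.02 to 0.13 for MRPS18A and -0.20 to 0.02 for MRPS36. At 35643585 to 42812951 counts a library, MRPS24, with 1 to 13 counts a library, was too low to test.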
